A study of Mus musculus with 5 samples.

Results

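The Onecut genes of the mouse, Onecut1, Onecut2 and Onecut3, were examined in dorsal pancreatic buds that lacked the transcription factor Ptf1a. They were taken as all probe sets annotated to exactly 1 gene symbol, that symbol being 1 of the 3. This gave 6 probe sets (2 of Onecut1, 3 of Onecut2 and 1 of Onecut3) for 3 genes, out of 45037 probe sets and 18193 named genes on the array. A probe set is a group of short probes whose brightness is summarised as the signal of a transcript. Dorsal buds of E10.5 C57BL/6J embryos from matings of Ptf1a heterozygotes were freed of mesenchyme by dissection. The groups were Ptf1a heterozygote buds (n = 2 arrays) and Ptf1a null mutant buds (n = 3 arrays), and each array held RNA from a pool of 3 buds. Both groups carried at least 1 mutant Ptf1a allele, and no wild-type group was analysed here. The labels do not state which part of Ptf1a the mutation removes. Nor do the labels say which litters made up the pools, so all errors below describe the spread between these pools.

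Onecut factors are transcription factors that bind DNA through a single cut domain next to a divergent homeodomain. In the mouse, Onecut1 (also called HNF6) acts early in pancreatic endoderm, where it contributes to the onset of Pdx1 and is needed for normal numbers of Neurog3-positive endocrine progenitors and for normal ducts. Onecut2 is expressed in liver and pancreatic epithelium and partly overlaps Onecut1 in function, and Onecut3 is best known from the nervous system and gut. Ptf1a is a basic helix-loop-helix protein that binds E-boxes in a complex with an Rbpj protein and is needed for pancreas formation.

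The promoter of Onecut1 is shown because Ptf1a, the factor removed here, binds the letters CANNTG. The sequence is from RefSeq (GRCm38.p6, chr9:74861671-74861970, plus strand) and runs from 250 bases before to 50 bases after the gene's start. Capitals mark every match to CANNTG, which reads the same on both strands.
Onecut1 promoter: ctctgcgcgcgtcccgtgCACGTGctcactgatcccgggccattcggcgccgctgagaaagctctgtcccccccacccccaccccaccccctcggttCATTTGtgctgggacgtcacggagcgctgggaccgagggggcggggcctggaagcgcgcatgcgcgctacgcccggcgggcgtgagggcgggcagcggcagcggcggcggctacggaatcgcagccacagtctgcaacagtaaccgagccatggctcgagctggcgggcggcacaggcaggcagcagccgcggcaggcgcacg
The window held 2 matches, CACGTG and CATTTG. At least 1 match to CANNTG was present in 72.3% of 32851 mouse promoter windows of the same length. TGGGAA, the letters bound by the Rbpj part of the Ptf1a complex, was searched on both strands and had 0 matches here, against 25.6% of windows with a match. ATCGAT, a core of the Onecut site itself, also had 0 matches, against 0.925% of windows. G and C made up 73.0% of the window, against a median of 52.7% over all windows. Only Onecut1 is shown.

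Median deposited intensity was 14.4 to 17.5 in heterozygotes and 13.7 to 16.4 in nulls, and 60.9% to 65.2% of probe sets on an array lay above background. Signals are given on the log2 scale after quantile normalisation, and background is taken on each array from 27 controls that match Bacillus subtilis genes, as their 95th percentile (3.03 to 3.29). For Gapdh, the 3' control probe set was brighter than the 5' control by 1.52 to 1.69 in heterozygotes and by 1.41 to 1.46 in nulls. For beta-actin it was 0.62 to 0.71 in heterozygotes and 0.57 to 0.71 in nulls, which overlap. The part of the Gapdh difference in the results was not tested. All 8 markers of pancreatic bud epithelium measured, among them Pdx1, Cdh1 and Epcam, were above background on every array. Of these, 3 were higher and 5 lower in nulls. Their summed linear signal was 3947 to 4751 in heterozygotes and 4692 to 6026 in nulls, which overlap. Groups separated with nulls higher at 2 of the 8, beside 9.9% of all probe sets, and with nulls lower at 3, beside 10.1%. Ptf1a itself read 7.10 and 7.33 in heterozygotes against 5.21, 6.07 and 5.00 in nulls, so that every null array lay below both heterozygotes.

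Onecut2 signal was higher in Ptf1a null buds on average at all of its 3 probe sets, while the bright probe set of Onecut1 was slightly lower. Onecut3 was below background on every array. These differences are the values by which the genes were chosen, so they are described here without a test and support nothing further. The 6 probe sets included 2 at which every null array exceeded both heterozygotes, both of Onecut2, and 0 at which every null array lay below them. Across all 45037 probe sets, groups separated in this way with nulls higher at 9.9% and with nulls lower at 10.1%.

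At its brightest probe set, 1444980_at, Onecut2 read 6.59 and 6.36 in heterozygotes, and in nulls it read 7.72, 8.26 and 7.30. The groups did not overlap. The heterozygote mean was 6.47 ± 0.16 (SD, n = 2) and the null mean 7.76 ± 0.48 (SD, n = 3). This is a log2 difference of 1.29 (limma SE 0.44), or 2.44-fold higher signal in nulls. In the deposited linear intensities the same probe set stood at 112 and 80.4 in heterozygotes and at 236, 228 and 161 in nulls, so the order of the groups was present before normalisation.

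The largest difference of the 3 Onecut2 probe sets was at 1460044_at, the dimmest of them. It read 3.20 and 4.04 in heterozygotes and 5.61, 5.67 and 5.40 in nulls. The heterozygote values lay close above background, at 3.62 ± 0.59 (SD, n = 2), and the nulls were tightly grouped at 5.56 ± 0.14 (SD, n = 3). The log2 difference was 1.94 (limma SE 0.42), 3.83-fold. Because the heterozygote signals were so near background, this size depends on how low values are treated: with 16 added to every intensity before taking logs it was 1.14. It also moved with the heterozygote array used, from 1.51 without heterozygote replicate 1 to 2.33 without heterozygote replicate 2.

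The probe set 1440005_at of Onecut2 did not separate the groups. It read 5.85 and 5.73 in heterozygotes and 6.81, 7.09 and 5.78 in nulls. Null replicate 3 sat between the heterozygote values, while the other null arrays were higher. The means were 5.79 ± 0.08 (SD, n = 2) and 6.56 ± 0.69 (SD, n = 3), a log2 difference of 0.77 (limma SE 0.52). Null replicate 3 was the lowest null array at all 3 probe sets of Onecut2. Without it the log2 difference at 1440005_at was 1.16.

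Onecut1, the founding member of the family, gave bright signal in both genotypes at 1421447_at. It read 8.06 and 8.36 in heterozygotes and 7.89, 8.07 and 7.57 in nulls. The groups overlapped by a narrow margin, since null replicate 2 lay at 8.07 and heterozygote replicate 1 at 8.06. The means were 8.21 ± 0.21 (SD, n = 2) and 7.84 ± 0.25 (SD, n = 3), a log2 difference of -0.37 whose limma SE was also 0.37. The separation depended on scaling. With median centring the nulls lay below the heterozygotes (7.99, 7.84 and 7.55 against 8.12 and 8.45; log2 difference -0.50), and without normalisation they did so as well (8.06, 7.66 and 7.61 against 8.29 and 8.34; log2 difference -0.54). Across all probe sets, nulls lay wholly below heterozygotes at 11.5% under median centring and 11.0% in the unnormalised values, whose median difference over all probe sets was -0.12. The pattern of Onecut2 did not depend on scaling, with 2 of 6 Onecut probe sets wholly higher in nulls in each case, where 8.93% of all probe sets were so with median centring and 7.5% without normalisation.

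The other Onecut1 probe set, 1450252_at, was dimmer and scattered among the nulls. It read 4.92 and 5.07 in heterozygotes and 4.75, 2.45 and 5.75 in nulls. Null replicate 3 was the highest of the 5 arrays and null replicate 2 the lowest, below background. The means were 4.99 ± 0.11 (SD, n = 2) and 4.32 ± 1.69 (SD, n = 3), a log2 difference of -0.68 (limma SE 1.04). The direction rested on 1 array: without null replicate 2 the difference was 0.26. The 2 probe sets of Onecut1 therefore gave no common account of a difference between genotypes, and the description of Onecut1 and Onecut2 as changing in opposite directions holds for the signs of the mean differences on all 5 arrays, not for separated groups at Onecut1.

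Onecut3 was represented by 1428040_at, which read 2.96 and 0.46 in heterozygotes and 1.40, 0.46 and 1.37 in nulls. It was above background on 0 of 5 arrays, so no fold is given. The mean difference of -0.63 turned to 0.61 without heterozygote replicate 1.

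**Figure D1:**
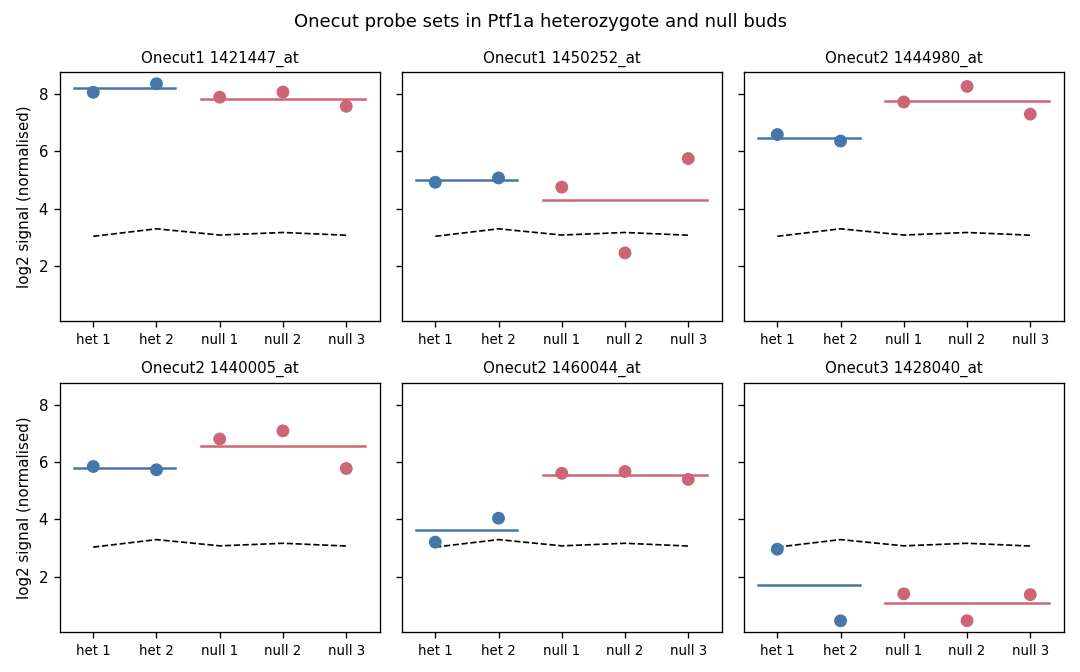
Normalised log2 signal (vertical axis) of each Onecut probe set on each array (horizontal axis; blue, heterozygote; red, null), with group means as solid lines and each array's background level as a dashed line. Onecut2 nulls lie above both heterozygotes at 1444980_at and 1460044_at, Onecut1 groups overlap at both probe sets, and Onecut3 lies below background throughout.

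The limma fit over all 45037 probe sets, in which the variance prior is the same at every signal level (the untrended fit), called 0 of the 6 Onecut probe sets at a Benjamini-Hochberg adjusted p under 0.05, where 0.0% of all probe sets were called. A second limma fit, in which the variance prior follows signal level and resists outliers (the trended fit), also called 0 of 6, with 0.0178% of all probe sets called. At an unadjusted p under 0.05, 2 of 6 passed in each fit, both of Onecut2, against 5.52% and 4.93% of all probe sets. Since the genes were chosen by this contrast, nothing is read from these counts.

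The sign of the difference was examined under the alternatives that can move a probe set's value, through the scaling, the treatment of dim values, the model or the arrays used. Among them, the replicate block and leaving out null replicate 3 gave nearly the same differences, so they are not separate checks. All 3 probe sets of Onecut2 were higher in nulls in 9 of 9, with log2 differences of 1.04 to 1.52 at 1444980_at, 0.51 to 1.16 at 1440005_at and 1.14 to 2.33 at 1460044_at. At 1444980_at and 1460044_at, where the groups did not overlap, leaving out an array could hardly turn the sign, so those alternatives say little about stability. Onecut1 was lower in 9 of 9 at 1421447_at, with differences of -0.54 to -0.22. The groups overlapped only narrowly there, so leaving out an array could hardly turn that sign either. With all arrays the difference was no larger than its limma SE. At 1450252_at of Onecut1 it was lower in 9 of 10, over -1.40 to 0.26, and Onecut3 was also lower in 9 of 10.

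**Figure D2:**
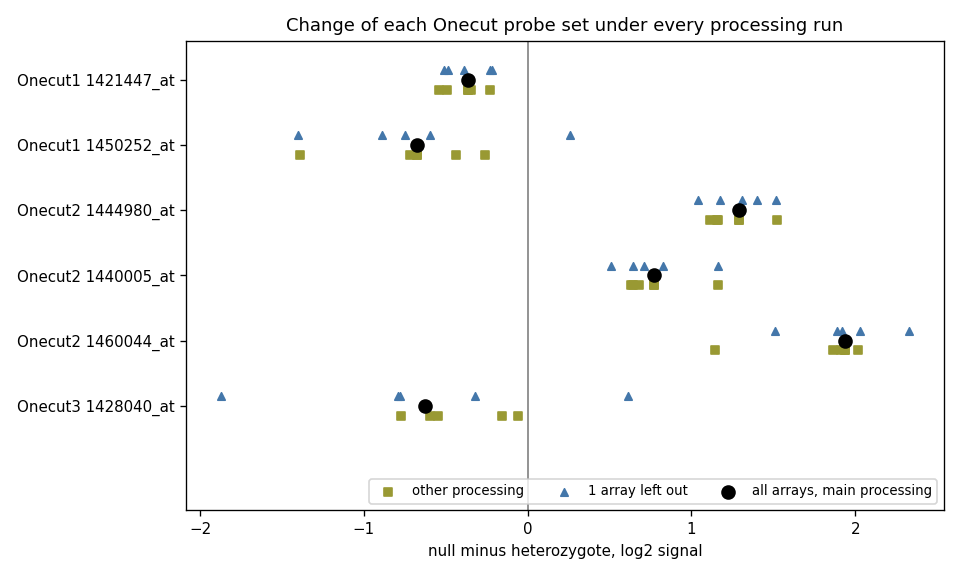
Log2 difference, null minus heterozygote (horizontal axis), of each Onecut probe set (vertical axis) with all arrays and the main processing (black), under other processing (squares) and with 1 array left out (triangles). The Onecut2 points all lie above 0, the points of Onecut1 1421447_at all lie below 0, and those of Onecut1 1450252_at and of Onecut3 fall on both sides.

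The balance between the paralogues was also read within each array, as the Onecut2 signal minus the Onecut1 signal. A shift of a whole array cancels in this difference. Its absolute size has no meaning, because different probe sets bind with different strength, and only its variation between arrays is described. For the brightest probe sets, 1444980_at and 1421447_at, it was -1.47 and -2.001 in heterozygotes and -0.17, 0.20 and -0.27 in nulls. Every null array lay above both heterozygotes, by at least 1.20, and the means differed by 1.66 on the log2 scale. The nulls also lay above both heterozygotes when 1421447_at was set against Onecut2 1440005_at (by at least 0.42) and 1460044_at (by at least 1.92).

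The same difference taken with the other Onecut1 probe set, 1450252_at, was dominated by null replicate 2. Against 1444980_at it was 1.67 and 1.29 in heterozygotes and 2.97, 5.81 and 1.55 in nulls, so that null replicate 3 fell between the heterozygotes. Of the 6 possible pairs of an Onecut2 and an Onecut1 probe set, the pairs of 1450252_at with 1444980_at and with 1440005_at overlapped between genotypes. The differences within arrays come from the contrast that chose the genes and are given as a description. Onecut2 1444980_at and 1460044_at separated the genotypes on their own, so their separated pairs partly repeat that. How often pairs of other probe sets separate was not computed.

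**Figure D3:**
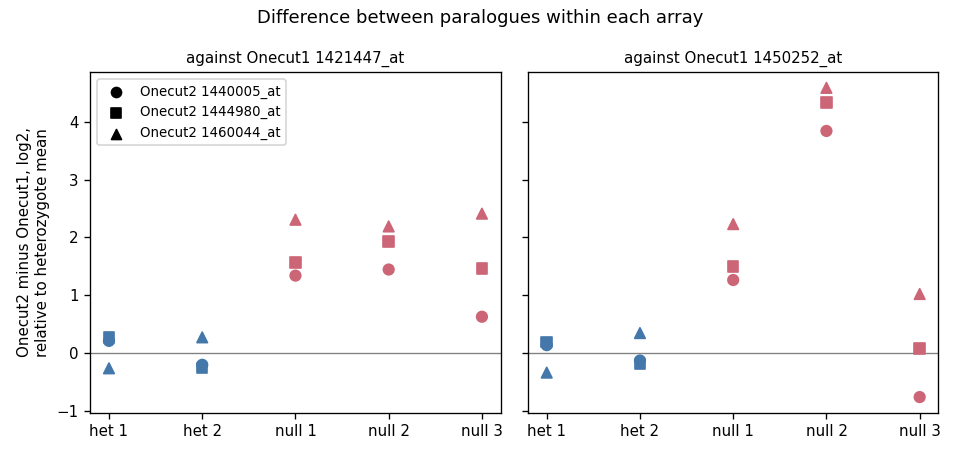
Onecut2 minus Onecut1 log2 signal within each array, relative to its heterozygote mean (vertical axis), for 3 Onecut2 probe sets (symbols) against each Onecut1 probe set (panels); blue, heterozygote; red, null. Against 1421447_at all nulls lie above both heterozygotes, whereas against 1450252_at null replicate 2 stands far above and null replicate 3 is the lowest null array.

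How far the probe sets of 1 gene varied alike over the 5 arrays was measured as the root mean square difference of their log2 values, each centred on its own mean. Onecut2 1444980_at differed from 1440005_at by 0.32 and from 1460044_at by 0.51. Of 18146 probe sets of other named genes above background on all arrays, 0.490% and 6.30% were closer to it than these. Onecut1 1421447_at differed from 1450252_at by 1.23, and 99.9% of 18148 such probe sets of other genes were closer to 1421447_at. The distance rests largely on null replicate 2, where 1450252_at was below background (centred values 0.079 at 1421447_at and -2.14 at 1450252_at). Null replicate 3 also added to it (-0.42 and 1.16). These distances are over 5 arrays and include the genotype difference by which the genes were chosen, so the shares are only a description.

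By the same measure, the genes most like Onecut1 1421447_at were Mxi1, which encodes a Max-binding repressor that opposes Myc (0.041), Fzd3, a Wnt receptor gene (0.044), Mdn1, which acts in ribosome assembly (0.052), Rabggta, a subunit of the Rab prenylating enzyme (0.055), and Pigg, of GPI anchor synthesis (0.056). The closest to Onecut2 1444980_at were Btbd9, a BTB domain gene (0.088), Tmem186 (0.14), Snx19, a sorting nexin gene (0.17), Fzd5, another Wnt receptor gene (0.18), and Rab31, a small GTPase gene (0.18). Distances for Onecut1 and Onecut2 are not comparable, because Onecut1 1421447_at varied less over the arrays. Fzd5 read 8.56 and 8.68 in heterozygotes and 9.64, 10.20 and 9.09 in nulls.

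The other mouse genes that encode cut domains with a homeodomain were represented by Cux1, Cux2 and Satb1. The limma fits called 0 of these 3, with 0 and 1 at an unadjusted p under 0.05 in the untrended and trended fits. Cux1 read 7.82 and 7.33 in heterozygotes and 8.42, 8.08 and 8.45 in nulls at its brightest probe set, without overlap (log2 difference 0.75, limma adjusted p = 0.976 in the untrended fit). The other 8 probe sets of Cux1 had differences from -0.71 to 1.97, so its probe sets did not move together. At their brightest probe sets, Cux2 differed by -0.043 and Satb1 by 0.0081. The Satb1 difference turned to -0.10 with median centring and -0.14 without normalisation. The other Cux2 probe sets differed by 0.40, with overlap, and by 1.54, with groups separated and nulls higher. At the latter, heterozygote replicate 2 was below background. The other Satb1 probe sets differed by -0.81 to 0.51, all with overlap.

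Genes that act with Onecut factors in pancreatic endoderm were lower in nulls more often than higher. Of 18 measured, 4 were higher and 14 lower, with a median log2 difference of -0.58, against a median of -0.0099 and 49.3% higher over all probe sets. The list was chosen with results of these data known, which is why no test of it is given. The untrended limma fit called 0 of the 18 (5 at an unadjusted p under 0.05) and the trended fit called 1, Foxa1. Groups separated with nulls lower at 7 of the 18, beside 10.1% of all probe sets. Ptf1a, the mutated gene itself, is among the 18 and counts in the 14 lower, the 5 and the 7.

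Foxa1, a forkhead factor that opens chromatin in endoderm, rose in the trended fit by a log2 difference of 1.82 (SE 0.36 in the untrended fit; limma adjusted p = 0.0219 in the trended and 0.448 in the untrended fit). It read 7.13 and 7.21 in heterozygotes and 9.26, 8.96 and 8.76 in nulls. The call was lost without any 1 of the 5 arrays, with log2 differences of 1.69 to 1.94 and limma adjusted p of 0.0896 and 0.101 without heterozygote replicates 1 and 2 and of 0.362, 0.231 and 0.201 without null replicates 1, 2 and 3. Foxa1 and Onecut2 had the highest positive differences when the 18 factors are set beside the brightest probe sets of the 3 Onecut genes. Foxa2, which acts upstream of Pdx1, was nearly level at 7.32 ± 0.27 (SD, n = 2) and 7.20 ± 0.20 (SD, n = 3).

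Pdx1, the homeodomain factor of the pancreatic field, had a log2 difference of -0.51 (limma adjusted p = 0.991). Prox1, a homeodomain factor of liver and pancreas progenitors, had -0.70 (limma adjusted p = 0.976), with 8.05 and 8.43 in heterozygotes and 7.68, 7.55 and 7.41 in nulls. Mnx1, needed to form the dorsal bud, had -2.68 (limma adjusted p = 0.369 untrended and 0.0612 trended). Nr5a2, a nuclear receptor of exocrine cells, had -1.24, and Ptf1a -1.79, without passing in either fit (limma adjusted p = 0.829 and 0.651 untrended). Hnf4a, a nuclear receptor of endoderm, had 0.57, which fell to 0.077 when heterozygote replicate 1 was left out and came to 1.05 when heterozygote replicate 2 was. Sox9 differed by -0.070 and Glis3, a zinc finger factor of ducts and endocrine cells, by -0.70 (-1.05 to -0.33 with 1 array left out). None of these 3 passed in either fit.

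**Figure D4:**
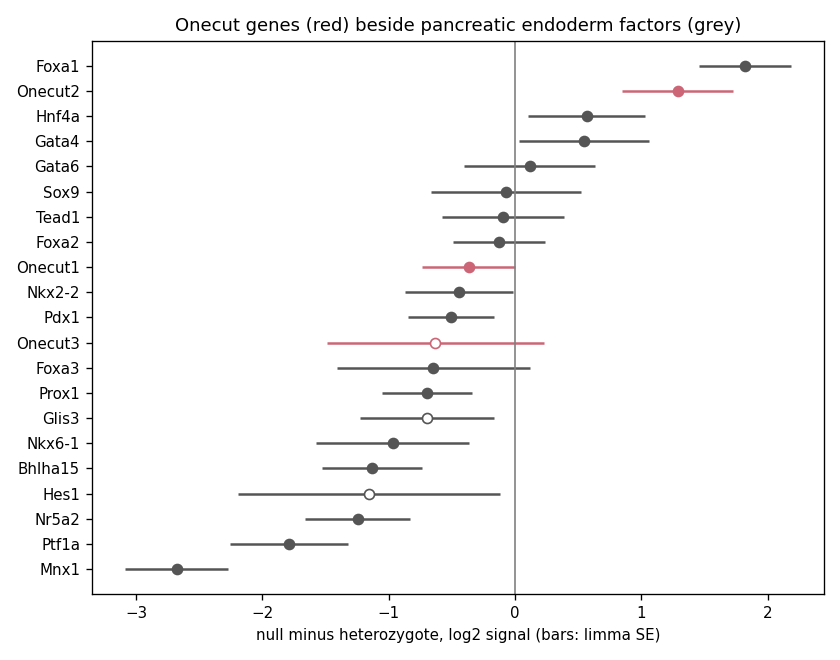
Log2 difference, null minus heterozygote (horizontal axis; bars, limma SE), for the brightest probe set of each Onecut gene (red) and of 18 pancreatic endoderm factors (grey), sorted by size; open symbols were not above background on all 5 arrays. Onecut2 lies at 1.29, next to Foxa1 at 1.82, and Onecut1 at -0.37 lies among the factors nearest to 0.

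Endocrine differentiation factors, most of which act downstream of Neurog3, gave 4 higher and 4 lower of 8 measured, with a median of 0.024 and 0 called by either fit (0 and 1 at an unadjusted p under 0.05). Neurog3, the factor that starts endocrine differentiation, read 6.20 and 7.99 in heterozygotes and 7.61, 6.92 and 6.58 in nulls. The heterozygotes spanned all nulls, and the mean difference was -0.056. Insm1, a zinc finger factor of endocrine progenitors, had a log2 difference of -0.69, Pax6 0.30, Pax4 0.35 and Nkx6-2 0.36, with limma adjusted p of at least 0.991 in the untrended fit. Pax4 was above background on only 3 of 5 arrays, and its difference turned to -1.70 without heterozygote replicate 1. With 1 array left out, Insm1 ranged over -1.11 to -0.27 and Pax6 over 0.11 to 0.48.

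Duct and cilium genes had 6 higher and 2 lower of 8 measured, a median of 0.25 and 0 called by either fit (1 at an unadjusted p under 0.05 in each). Pkhd1 and Cys1, cystic kidney disease genes that need Onecut1 in mouse ducts, were above background on 2 and 1 of 5 arrays, too dim for a comparison. Krt19, a keratin of duct and embryonic epithelium, had a log2 difference of 0.92 (limma adjusted p = 0.900), with 5.48 and 5.51 in heterozygotes and 6.67, 6.31 and 6.26 in nulls. Ift88, of ciliary transport, had 0.31, and Pkd1 0.56.

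Genes known as Onecut1 targets or neighbours in liver had 5 higher and 6 lower of 11 measured, a median of -0.14 and 0 called by either fit (2 at an unadjusted p under 0.05 in each). Afp, the alpha-fetoprotein of fetal liver and yolk sac, read 7.59 and 9.08 in heterozygotes and 9.76, 10.09 and 9.76 in nulls, a log2 difference of 1.54 (limma adjusted p = 0.869 untrended and 0.360 trended). Without heterozygote replicate 1 the Afp difference was 0.78, and without heterozygote replicate 2 it was 2.29. At their brightest probe sets, Apoa1 and Alb, which encode plasma proteins of the liver, had differences of 1.33 and 1.09. Tgfbr2, a TGF-beta receptor gene that Onecut1 holds down in liver, had -0.26 at its brightest probe set, without overlap. Its other probe sets differed by 0.96, with groups separated and nulls higher, and by -1.20, with overlap. They were above background on 4 of 5 and on 1 of 5 arrays, so the Tgfbr2 probe sets did not share a direction. The other Apoa1 probe sets differed by 2.18, 2.31 and 4.57, and all Apoa1 probe sets separated the groups with nulls higher. Where the difference was 2.31 and 4.57, both heterozygotes were below background, so signal was at least 1.46-fold and 3.21-fold higher in nulls. At the latter the limma adjusted p was 0.363 in the untrended fit, and no probe set on the array had a lower one. Tat, a tyrosine-degrading liver enzyme gene, was just above background on both heterozygote arrays and on no null array, so that its signal was at least 1.11-fold lower in nulls (limma adjusted p = 0.681).

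Several cell types other than bud epithelium express Onecut genes, among them hepatoblasts and neurons. In bulk RNA, fewer cells of a type and less RNA per cell cannot be told apart. The 10 hepatoblast markers, each at its brightest probe set, were split, 5 higher and 5 lower in nulls. Their summed linear signal was 4444 to 6000 in heterozygotes and 6333 to 6542 in nulls, and Fga was above background on no array. Of 11 neuron markers 3 were higher and 8 lower, with sums of 1765 to 2422 and 1927 to 2360. Of 7 neural crest and glia markers 5 were higher and 2 lower, with sums of 224 to 265 in heterozygotes and 373 to 390 in nulls. Although the buds were freed of mesenchyme by dissection, 10 of 17 mesenchyme markers were above background on every array. Mesenchyme markers were higher at 14 of 17 (sums 2194 to 2648 and 2572 to 3135; Twist1 above background on no array). Without Vim, the brightest of them, they summed to 1366 to 1612 in heterozygotes and 1720 to 2123 in nulls. Groups separated with nulls higher at 6 of the 17, beside 9.9% of all probe sets, and with nulls lower at 0, beside 10.1%.

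Erythroid markers were lower at 8 of 9, with sums of 9510 to 11850 in heterozygotes and 7930 to 8846 in nulls, and Hba-a1 was above background on no array. Endothelium markers were split 4 to 4, with sums of 199.8 to 308 and 156 to 351. Intestine and stomach markers gave 3 higher and 5 lower, with sums of 91.4 to 108 and 64.7 to 151, and Cdx1 and Fabp1 were above background on no array. The hepatoblast, neural crest and erythroid sums separated the genotypes, as 2 of the 3 Onecut2 probe sets did. So did the mesenchyme sum without Vim. How often sums of other genes separate was not computed. Among members, groups separated with nulls higher at 2 of 10 hepatoblast, 2 of 7 neural crest and glia and 0 of 9 erythroid markers, beside 9.9% of all probe sets. With nulls lower they did so at 2, 0 and 6, beside 10.1%. The hepatoblast sum was mostly Ttr (77.8% to 88.8% of it), whose own groups overlapped. The other 9 hepatoblast markers summed to 497 to 852 in heterozygotes and 1147 to 1408 in nulls, with Afp the brightest of them by mean log2 signal. That separation came from Afp, since the sum of the markers left without Ttr and Afp overlapped between genotypes. The median log2 difference of the 10 was -0.017. The part of these marker sums in the Onecut2 difference was not tested. The limma fits called 0 members of these 7 marker lists, of which 0 to 3 a list had an unadjusted p under 0.05 in the untrended fit and 0 to 4 in the trended fit.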

How the data were processed

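RNA of 5 pools was measured on Affymetrix GeneChip Mouse Genome arrays of a single design. Per the labels' protocols, total RNA of 3 pooled buds was reverse transcribed from an oligo(dT) primer and amplified in 2 rounds, which favours 3' ends. The authors deposited 1 linear intensity per probe set and array, and per the submitters' processing notes GCOS and RMA were used, with no version or order stated. The sources used here do not give the background step. The deposited intensities were log2-transformed with no offset, then quantile normalised over 45101 probe sets, and 64 control probe sets were then left out. Symbols are those of the platform's annotation table, in which 34945 probe sets had 1 symbol.

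Genotypes were compared with limma 3.58.1 in R 4.3.3 (lmFit and eBayes, genotype as the sole term, two-sided), with Benjamini-Hochberg adjustment over 45037 probe sets at 0.05. The members and lists were chosen with earlier results of these data known. Each list gene stands as its brightest probe set. Named genes were all Onecut probe sets, the Cux and Satb relatives, the 4 genes of lowest p in each other list (or those called), a fixed set of Onecut-related genes, and the 5 genes closest to Onecut1 and to Onecut2. A few genes of the lists were not analysed here. Where a group was below background on all arrays, a fold is a bound ("at least") against the higher of background and the measured value. With 2 against 3 arrays the number of arrays limits the precision. Alternatives were median centring, no normalisation, an offset of 16, values raised to background, probe sets above background on under 2 arrays left out, the trended fit, a replicate block, and each array left out in turn.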

Additional observations from a re-analysis of the deposited data

How the results depend on the processing

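The untrended limma fit called 0 probe sets (2484 at an unadjusted p under 0.05), and it called 0 in each alternative apart from the trended fit, which called 8. Of the genes in the 5 network lists it called 0 in each alternative apart from the trended fit, which called 1, Foxa1. With 1 array left out, the log2 difference ranged over -0.51 to -0.22 for Onecut1 1421447_at, -1.40 to 0.26 for Onecut1 1450252_at, 1.04 to 1.52 for Onecut2 1444980_at, 0.51 to 1.16 for Onecut2 1440005_at, 1.51 to 2.33 for Onecut2 1460044_at and -1.87 to 0.61 for Onecut3 1428040_at. Onecut2 1460044_at moved by more than the replicate SD with the offset of 16, to 1.14, and Onecut3, below background, has no reliable direction. The titles give both groups replicates 1 and 2, but nothing says that a number marks a shared litter or day, and deviations of same-numbered arrays correlated at -0.017 and 0.0080. With the replicate number as a block the fit called 0 probe sets, and the difference was 1.52 at Onecut2 1444980_at and -0.23 at Onecut1 1421447_at. Only the nulls have a replicate 3, so that array adds nothing to the blocked difference. The blocked run therefore nearly repeats the run without null replicate 3, which gave 1.52 and -0.23 at the same probe sets. Named genes of the lists, none of them called by the untrended fit, changed sign as follows. With the replicate block the log2 difference was 0.17 for Neurog3, -0.83 for Pkhd1 and 0.28 for Sox9; Satb1 was at -0.10 with median centring and -0.14 without normalisation, and Cys1 at 0.25 with values raised to background. With 1 array left out the difference ranged over -0.16 to 0.070 for Cux2, -0.31 to 0.061 for Foxa2, -0.95 to 0.84 for Neurog3, -1.70 to 2.40 for Pax4, -0.39 to 1.4996 for Pkd1, -1.30 to 2.48 for Pkhd1, -0.29 to 0.30 for Satb1 and -0.62 to 0.48 for Sox9. Without a change of sign, it ranged over 0.69 to 1.48 for Alb, 0.032 to 0.59 for Ift88, 0.18 to 0.54 for Nkx6-2, -1.65 to -0.82 for Nr5a2, -0.35 to -0.13 for Tgfbr2 and -2.14 to -0.29 for Cys1. Why these values moved was not tested. The fits that combine the trended prior with leaving out an array were chosen after seeing the data.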
